A study of Mus musculus with 2 samples.

Results

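Fatty acid synthesis and desaturation in the fetal mouse liver were followed through 10 genes, chosen by name: Acly, Acaca, Fasn, Scd1, Scd2, Elovl5, Elovl6, Srebf1, Me1 and Gpam. All 10 were matched by gene identifier, among 43346 genes measured. Whole livers were taken at embryonic day 15.5 from healthy B6NCrl mice, and RNA longer than 200 nt was sequenced. Replicate 2 was a pool of 62 livers and replicate 1 a pool of 78, each of both sexes. The input to a library was 10 ng, and synthetic spike-in RNAs had been added. The libraries are the only 2 samples and form a single group without treatment, mutation or control. The comparisons possible are therefore between genes within the tissue and between replicate 2 and replicate 1.

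In this pathway, citrate that leaves the mitochondria is split by ATP citrate lyase (Acly) into acetyl-CoA, which acetyl-CoA carboxylase (Acaca) turns into malonyl-CoA. Fatty acid synthase (Fasn) builds palmitate from these units with NADPH, part of which the cytosolic malic enzyme (Me1) supplies. Elongases of the Elovl family lengthen the chain, stearoyl-CoA desaturases (Scd) add a double bond, and the mitochondrial acyltransferase encoded by Gpam begins the assembly of glycerolipids. Srebf1 encodes the transcription factor SREBP-1, a membrane-bound precursor that is cut to release an activator of most of these genes. In mouse liver Scd2 is known as the main desaturase before and around birth and Scd1 as that of the adult.

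Because the coding sequences of Scd2 and Scd1 are near copies of each other, the bases that set them apart bear on the values given for them. The coding sequence is only part of each listed transcript, which is 5453 nt long for Scd2 and 4836 nt for Scd1. Over the whole transcripts, 6.86% of 31-base words for Scd2 and 8.30% for Scd1 also occur in another gene. In the GENCODE reference transcripts, the coding sequences of Scd2 (1077 bases) and Scd1 (1068 bases) were identical at 965 of 1068 aligned bases, or 90.4%. The encoded proteins of 358 and 355 residues were identical at 310 of 355 aligned residues, or 87.3%. A pair of 90-base windows of the coding strand are shown, counted from the first base of the start codon, with bases that differ between the genes in capitals. Both genes lie on chromosome 19.
Scd2 coding bases 85 to 174, the least alike window: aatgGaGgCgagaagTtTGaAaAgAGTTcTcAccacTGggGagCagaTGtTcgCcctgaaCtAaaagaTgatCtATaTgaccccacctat
Scd1 coding bases 76 to 165, the same aligned window: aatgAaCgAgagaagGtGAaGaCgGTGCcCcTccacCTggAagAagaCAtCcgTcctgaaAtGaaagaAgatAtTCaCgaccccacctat
Scd2 coding bases 532 to 621, the most alike window: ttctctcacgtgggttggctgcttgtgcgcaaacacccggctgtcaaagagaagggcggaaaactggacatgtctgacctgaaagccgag
Scd1 coding bases 523 to 612, the same aligned window: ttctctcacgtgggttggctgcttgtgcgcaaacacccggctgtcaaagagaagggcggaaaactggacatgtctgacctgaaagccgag
The first window held 29 differing bases and the second held 0, so a read that lies within the second cannot be assigned to either gene by its sequence.

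Depth was 44200838 expected counts in replicate 2 and 34039426 in replicate 1 without spike-ins. Over 17574 genes the counts differed beyond sampling noise, with a chi-square of 18.1 per degree of freedom, so the files do not hold 1 library deposited again. Levels are given as TPM, a transcript's length-corrected share of all transcripts, scaled to a fixed total from which the spike-ins were removed. The labelled tissue was checked by marker genes. All 10 hepatocyte markers exceeded 10 TPM in each library. Their sum was 34820 TPM in replicate 2 and 44778 TPM in replicate 1. Of 8 adipocyte markers, 3 were detected at 1 TPM in both libraries and Adipoq, Plin1, Lep and Cfd had no count in either. Fabp4, also a gene of capillaries and macrophages, was at 20.7 TPM in replicate 2 and 17.9 TPM in replicate 1. Lipe was at 2.66 and 3.28 TPM and Pparg at 1.64 and 1.41 TPM in replicates 2 and 1. A whole-organ library cannot tell a change in the number of cells of a type from a change in RNA per cell.

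All 10 genes were present at 1 TPM or more in both libraries, as were 53.1% of 21474 protein-coding genes. They summed to 329 TPM in replicate 2 and 369 TPM in replicate 1 (349 ± 28.7 TPM, SD, n = 2). Adult globin genes held 38.9% of all TPM in replicate 2 and 38.1% in replicate 1, and with them left out of the total the members averaged 567 TPM in sum. Scd2, Acly and Srebf1 together held 74.8% of that sum in replicate 2 and 74.6% in replicate 1. At the other end, Elovl6, Acaca and Me1 lay between 4.20 and 5.47 TPM. Fasn, Gpam, Elovl5 and Scd1 lay between 15.6 and 22.8 TPM.

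**Figure D1:**
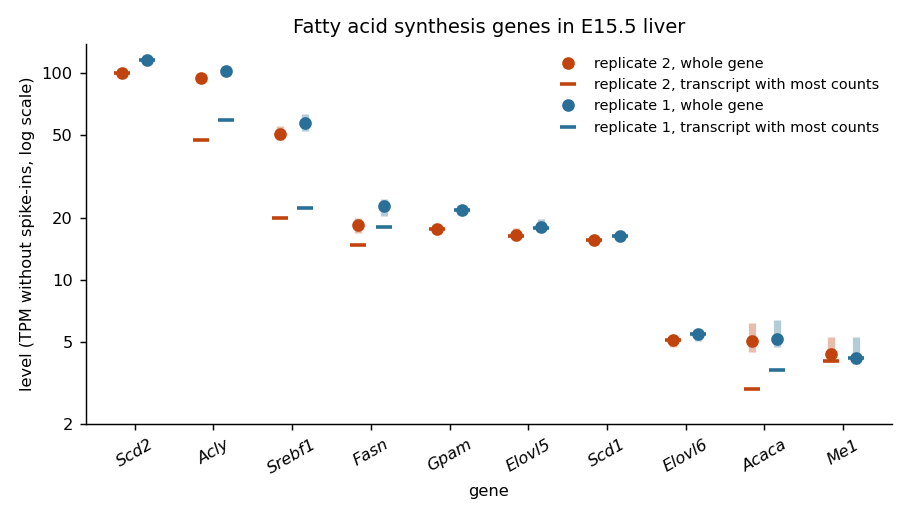
Level of each of the 10 genes in TPM without spike-ins on a log axis, with replicate 2 left of replicate 1. Dots are whole genes, and dashes are the transcript that holds the most expected counts. Pale bars are the interval that the authors' quantifier reports for each gene, rescaled, which lies around its posterior mean TPM. Scd2 and Acly stand highest, Elovl6, Acaca and Me1 lowest, and the dash falls below the dot in Acly, Srebf1, Fasn and Acaca.

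The enzymes that supply acetyl-CoA and NADPH stood at opposite ends of the group. Acly (ENSMUSG00000020917; GRCm38 chromosome 11, 100476353 to 100528000) was at 95.2 TPM in replicate 2 and 103 TPM in replicate 1, higher than 91.4% of detected genes. Its level per length was 4.22-fold that of Acss2, which makes acetyl-CoA from acetate, in replicate 2 and 4.36-fold in replicate 1. By whole-gene TPM the lowest member was Me1 (chromosome 9, 86581371 to 86695953), at 4.37 TPM in replicate 2 and 4.20 TPM in replicate 1. This placed it above 27.0% of detected genes. Its mitochondrial relative Me2 was at 29.8 TPM in replicate 2 and 28.5 TPM in replicate 1, 6.82-fold and 6.79-fold above Me1. The third malic enzyme, Me3, was at 0.0723 and 0.0829 TPM in replicates 2 and 1. Other NADPH-forming enzymes of the cytosol were also above Me1. Idh1, isocitrate dehydrogenase, was at 109 TPM in replicate 2 and 122 TPM in replicate 1.

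The committed steps were uneven. Fasn (ENSMUSG00000025153; chromosome 11, 120805846 to 120824547) was at 18.5 TPM in replicate 2 and 22.8 TPM in replicate 1. Acaca (chromosome 11, 84129672 to 84401651) was at 5.08 TPM in replicate 2 and 5.20 TPM in replicate 1, so Fasn exceeded it 3.64-fold in replicate 2 and 4.39-fold in replicate 1. The mitochondrial carboxylase Acacb, whose product restrains fatty acid oxidation, was at 0.423 TPM in replicate 2 and 0.404 TPM in replicate 1, from 101 and 100 expected counts. Acaca thus held 92.3% of carboxylase TPM in replicate 2 and 92.8% in replicate 1. The log2 ratio of Acaca over Acacb was 3.64 ± 0.07 (SD, n = 2), far larger than the spread between the libraries.

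Among the stearoyl-CoA desaturases Scd2 held most of the RNA. Scd2 (ENSMUSG00000025203; chromosome 19, 44293674 to 44306864) was the highest member at 100.1 TPM in replicate 2 and 115 TPM in replicate 1, from 22496 and 19225 expected counts. Scd1 (ENSMUSG00000037071; chromosome 19, 44394455 to 44407879) was at 15.6 TPM in replicate 2 and 16.3 TPM in replicate 1, from 3113 and 2404 expected counts. The ranges of the 2 genes were far apart in both libraries. Scd2 exceeded Scd1 by 6.40-fold in replicate 2 (exact 95% interval 6.16 to 6.64) and by 7.08-fold in replicate 1 (6.78 to 7.38). These intervals cover counting error only, and PCR copies of a molecule are counted as separate reads here. The division of reads between the alike coding stretches shown above adds an error of its own. Scd2 held 87.0% ± 0.803 of the TPM of the 4 Scd genes (SD, n = 2). Scd3 had 1.03 and 1.08 expected counts and Scd4 had 1.00 and 3.01 in replicates 2 and 1. With 2 libraries the smallest p that an exact sign test (two-sided) allows is 0.5, so each order of genes is given by its size beside the spread between libraries.

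Of the elongases among the members, Elovl5, which extends polyunsaturated chains, exceeded Elovl6, which extends saturated and monounsaturated chains of up to palmitate length. Elovl5 (chromosome 9, 77917364 to 77984519) was at 16.5 TPM in replicate 2 and 18.04 TPM in replicate 1. Elovl6 (chromosome 3, 129532355 to 129638495) was at 5.11 TPM in replicate 2 and 5.47 TPM in replicate 1. Their log2 ratio was 1.71 ± 0.02 (SD, n = 2). Neither led its family. Elovl1, which extends long saturated chains for sphingolipids, held 54.9% of the TPM of the 7 elongases in replicate 2 and 56.1% in replicate 1. Elovl2, an elongase of long polyunsaturated chains, was at 40.5 TPM in replicate 2 and 42.6 TPM in replicate 1, 2.45-fold and 2.36-fold above Elovl5. Elovl3 had 4.00 and 1.00 expected counts in replicates 2 and 1, Elovl4 was at 0.175 and 0.321 TPM, and Elovl7 at 0.970 and 1.07 TPM.

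Gpam (chromosome 19, 55067268 to 55127238), which places the first acyl chain on glycerol phosphate at the mitochondrion, was at 17.6 TPM in replicate 2 and 21.8 TPM in replicate 1. The endoplasmic reticulum form Gpat4 was slightly higher, at 22.6 TPM in replicate 2 and 25.7 TPM in replicate 1. The ratio of Gpat4 over Gpam was 1.28 in replicate 2 (exact 95% interval 1.22 to 1.35) and 1.18 in replicate 1 (1.12 to 1.24), a difference beyond counting error in each library. Gpat3 was at 3.15 TPM in replicate 2 and 3.84 TPM in replicate 1, and Gpat2 at 0.320 and 0.580 TPM.

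**Figure D2:**
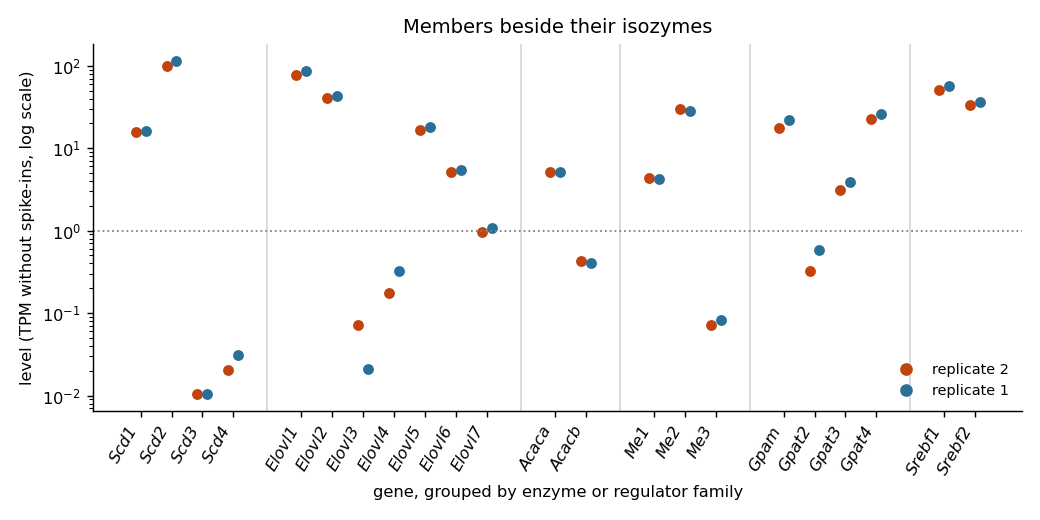
Level in TPM without spike-ins, on a log axis, of the members and their isozymes by family, with replicate 2 left of replicate 1 and the dotted line at 1 TPM. Scd2 stands far above the other desaturases, Acaca above Acacb, Me2 above Me1, and Elovl1 and Elovl2 above Elovl5 and Elovl6.

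Srebf1 (ENSMUSG00000020538; chromosome 11, 60199089 to 60222581, minus strand) was at 50.7 TPM in replicate 2 and 57.5 TPM in replicate 1 as a whole gene, and its paralog Srebf2, the main regulator of cholesterol synthesis, at 33.4 TPM in replicate 2 and 36.9 TPM in replicate 1. The log2 ratio of Srebf1 over Srebf2 was 0.62 ± 0.03 (SD, n = 2). This order turned on 1 short transcript. Srebf1-204, a noncoding processed transcript of 367 nt, was at 20.4 TPM in replicate 2 and 20.1 TPM in replicate 1 from only 230 and 168 expected counts over an effective length of 268 nt. Without it Srebf1 was at 30.3 TPM in replicate 2 and 37.4 TPM in replicate 1, a log2 ratio over Srebf2 of -0.14 in replicate 2 and 0.02 in replicate 1. That setting was chosen after its values were seen.

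SREBP-1a and SREBP-1c are made from alternative first exons of Srebf1, and the listed transcripts are described here by their starts, without assigning them to these forms. Srebf1-204 is the only listed transcript that begins at the upstream start, at 60222581, and no listed transcript joins that start to the last exons. Srebf1-201, of 4299 nt, begins at the downstream start at 60220604 and held 39.3% of the gene's TPM in replicate 2 and 38.8% in replicate 1. Srebf1-207 begins further in, at 60210465, and held 12.3% in replicate 2 and 11.8% in replicate 1. Counted by expected counts instead, Srebf1-201 held 72.0% in replicate 2 and 69.7% in replicate 1, and Srebf1-204 held 4.71% and 4.01%. RNA from different starts cannot be told apart over the exons it shares, so these shares do not give the proportion of SREBP-1a to SREBP-1c.

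RefSeq lists a start near each of these on GRCm38.p6, and the 250 bases upstream of each RefSeq start are shown, minus strand, to set the 3 promoters of Srebf1 side by side. Capitals mark matches to CCAAT, the box bound by NF-Y, or to GGGCGG, the GC box bound by Sp1, on either strand.
Upstream start, chr11:60222582-60222831: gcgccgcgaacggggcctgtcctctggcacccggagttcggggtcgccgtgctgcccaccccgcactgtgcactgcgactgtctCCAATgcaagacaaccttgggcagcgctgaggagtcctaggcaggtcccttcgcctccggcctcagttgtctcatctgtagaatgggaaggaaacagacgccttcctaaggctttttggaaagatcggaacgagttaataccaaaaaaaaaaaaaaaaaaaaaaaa
Downstream start, chr11:60220628-60220877: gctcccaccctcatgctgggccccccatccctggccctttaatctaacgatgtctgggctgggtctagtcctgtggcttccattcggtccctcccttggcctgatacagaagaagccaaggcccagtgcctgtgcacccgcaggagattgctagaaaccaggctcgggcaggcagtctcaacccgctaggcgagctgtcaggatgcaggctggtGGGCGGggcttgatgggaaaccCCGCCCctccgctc
Internal start, chr11:60210472-60210721: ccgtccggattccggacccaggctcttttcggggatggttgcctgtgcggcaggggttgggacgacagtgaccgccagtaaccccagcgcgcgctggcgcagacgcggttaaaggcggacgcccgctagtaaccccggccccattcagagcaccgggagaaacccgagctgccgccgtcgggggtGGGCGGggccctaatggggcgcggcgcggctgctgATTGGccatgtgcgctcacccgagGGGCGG
The upstream start held 1 CCAAT and 0 GC box matches, the downstream start 0 and 2, and the internal start 1 and 2. Among all 32851 promoter windows of this length, 33.8% held a CCAAT match and 32.7% a GC box match. The RefSeq table had 12 windows for 8 of the 10 genes. CCAAT was found in 6 of these 12 windows, from 5 genes, and the GC box in 5 windows, from 4 genes. The E-box CACGTG was found in 1 window (Elovl5), against 6.02% of all windows. TCACNCCAC, the core of a sterol regulatory element, was found in 0, against 1.05% of all windows. The 4 motifs do not overlap in the windows printed. A missing match says only that these letters are not in the window.

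The share of a gene in its full-length transcript mattered for other members too. Acaca-201, of 9026 nt, held 58.5% of Acaca TPM in replicate 2 and 70.1% in replicate 1, but 95.9% and 93.7% of its expected counts. Acaca-206, of 431 nt, held 30.1% in replicate 2 and 13.7% in replicate 1, from 21.2 and 7.37 expected counts. Fasn-201 held 80.0% of Fasn TPM in replicate 2 and 78.5% in replicate 1. The retained-intron transcript Fasn-202 held 14.3% and 12.6%. Acly was divided among coding transcripts of nearly full length. Acly-207, which begins at 100523598 on the minus strand, held 50.01% in replicate 2 and 57.5% in replicate 1, while Acly-203, which begins at 100528000, held 37.2% and 33.3%. Acly-201, from the same start as Acly-203 (4393 and 4426 nt), held 12.1% in replicate 2 and 8.77% in replicate 1. Elovl5-201 held 98.9% in replicate 2 and 98.97% in replicate 1, and Me1-201 held 92.7% and 100%. Scd1, Scd2, Elovl6 and Gpam had 1 listed transcript each.

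**Figure D3:**
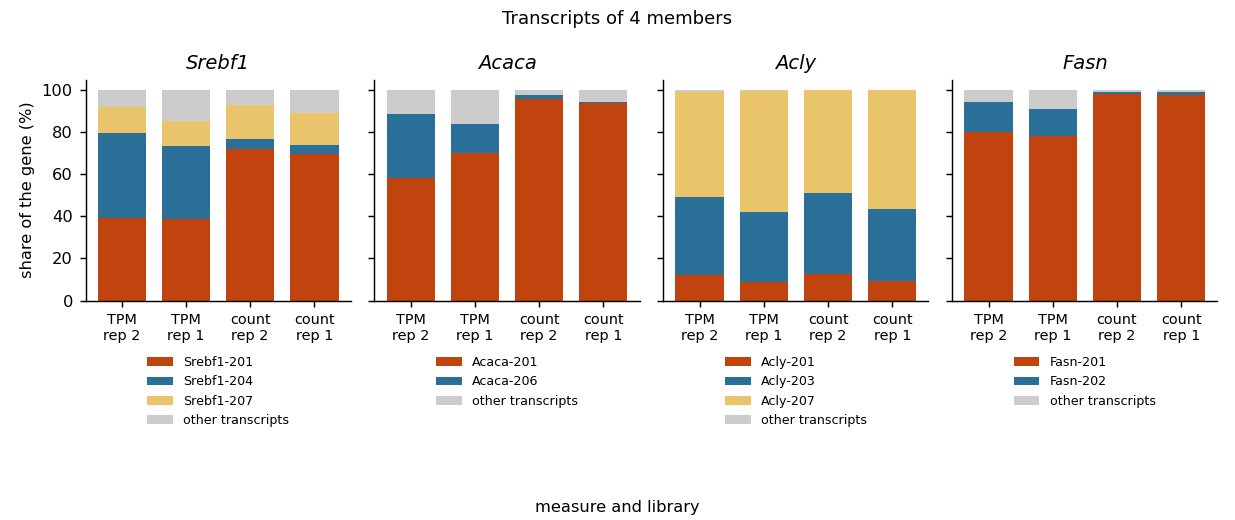
Share of each gene, in percent, held by its transcripts in Srebf1, Acaca, Acly and Fasn, by TPM in the left pair of bars and by expected count in the right pair, with replicate 2 left of replicate 1 in each pair. Transcripts with 10% or more of the TPM in either library are named. The short transcripts Srebf1-204, Acaca-206 and Fasn-202 shrink to thin slices by expected count, while Acly keeps its 3 parts.

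By TPM the leading transcript was the same in both libraries for 9 of the 10 genes. The exception was Srebf1, led by Srebf1-204 in replicate 2 and by Srebf1-201 in replicate 1, and by expected count Srebf1-201 led in both. Of the 6121 genes that had several transcripts and reached 5 TPM in each library, the leader differed in 6.85%, and it did so in 1 of the 5 members that met the same conditions. In replicate 2 the 2 transcripts were close, at 20.4 TPM for Srebf1-204 and 19.9 TPM for Srebf1-201.

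The order of the members by mean whole-gene TPM was Scd2, Acly, Srebf1, Fasn, Gpam, Elovl5, Scd1, Elovl6, Acaca and Me1. Each neighbouring pair kept this order within each library. Taken over both libraries, the ranges overlapped between Scd2 and Acly, Fasn and Gpam, Gpam and Elovl5, and Elovl6 and Acaca, so the order of these neighbours rests on comparing them within a library. Within each library the quantifier's intervals of Fasn and Gpam, of Elovl6 and Acaca, and of Acaca and Me1 overlapped as well, whereas those of Scd2 and Acly did not. These intervals lie around the quantifier's posterior mean TPM, a second estimate of the level, and not around the TPM itself. The TPM of Scd2 fell just above its own interval in each library. It was 100.07 against 97.4 to 100.06 in replicate 2, and 115.3 against 111.6 to 114.9 in replicate 1. The authors' files do not state the level of these intervals. The order of the members differed by the transcript with the most expected counts of each, compared after the values were seen. Acaca-201 was at 2.96 and 3.65 TPM in replicates 2 and 1, below Me1-201 at 4.05 and 4.20 TPM. Fasn-201, at 14.8 and 17.9 TPM, was below Gpam-201 at 17.6 and 21.8 TPM.

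Sequence shared with other genes limits some of these values. Of the 31-base words in the main transcript of Acaca, 59.9% also occur in Gm5182, a processed pseudogene on chromosome 12. For Me1 43.4% occur in other genes, mostly in the processed pseudogene Gm7049 on chromosome 13. No value was found for either pseudogene among the genes measured, and reads from the shared stretches cannot be told apart by sequence. Whether reads from the pseudogenes were counted for Acaca or Me1 was not tested. The share was 8.30% for Scd1, 7.06% for Elovl6, 6.86% for Scd2 and 1.85% for Srebf1, the last on the opposite strand in Rai1, which was at 3.56 TPM in replicate 2 and 4.28 TPM in replicate 1. Whether counting used the strand is not stated. Acly, Fasn, Gpam and Elovl5 shared none.

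Between the libraries the genes differed little. No member differed by more than 2-fold, against 0.672% of the 8781 genes at 5 TPM or more in either library. Me1 lay below that level, and 9 members were compared. All 9 were lower in replicate 2, as were 60.8% of all genes compared. The 9 had a median log2 ratio of TPM + 1, replicate 2 over replicate 1, of -0.12, against -0.04 over all genes compared. Including Me1, the one member that was higher in replicate 2, the 10 members had a median of -0.11. Their shared sign is given as a description.

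The widest differences among the members were those of Fasn and Gpam. Fasn was at 0.809-fold in replicate 2 relative to replicate 1, a log2 ratio of -0.29, and its count ratio was 0.853 (exact 95% interval 0.822 to 0.885). Gpam was also at 0.809-fold, with a count ratio of 0.840 (0.795 to 0.887). Scd2 was at 0.868-fold with a count ratio of 0.901 (0.884 to 0.919), and Scd1 at 0.960-fold with a count ratio of 0.997 (0.945 to 1.05). The interval left out 1 for 6 of the 9 members compared, namely Scd2, Acly, Srebf1, Fasn, Gpam and Acaca, and for 49.5% of all genes compared.

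Acaca showed how transcript assignment entered these ratios. Its gene TPM was at 0.977-fold in replicate 2, but its count ratio was 0.826 (exact 95% interval 0.760 to 0.899). The mean transcript length behind the TPM was 5542 nt in replicate 2 and 6775 nt in replicate 1. The full-length Acaca-201 alone was at 2.96 TPM in replicate 2 and 3.65 TPM in replicate 1. The transcript with the most expected counts of each member was also compared, a choice made after the values were seen. By it all 10 were lower in replicate 2, with log2 ratios of -0.31 to -0.04 and a median of -0.18. The share of all genes lower by this measure was not computed. By whole-gene TPM it was 60.8% of all genes compared.

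The direction depended on the scaling. Scaled by spike-in counts, 5 of the 10 members were lower in replicate 2, as were 17.7% of all genes compared. The members' median log2 ratio was then 0.03, but the median of all genes compared moved to 0.14. Relative to the median of all genes, the 10 members stood at -0.11 under spike-in scaling and at -0.07 by TPM. The first value uses expected counts, which are not corrected for length. Expected counts scaled by library totals instead of spike-ins also gave -0.11. By TPM, hepatocyte markers moved in the same direction as the members: all 10 were lower in replicate 2, with a median log2 ratio of -0.31. The 10 erythroid markers had a median of -0.12 by TPM, with 8 lower in replicate 2. The direction was not particular to these lists. All 7 endothelial markers were lower in replicate 2 (median -0.14), as were 6 of 8 macrophage markers (median -0.22). Of the 7 stellate and mesenchymal markers 5 were lower (median -0.03). Under spike-in scaling the medians were -0.11 for hepatocyte markers and 0.08 for erythroid markers, beside 0.03 for the members. Markers of skeletal and heart muscle were higher in replicate 2, all 8 of them, and added up to 375 TPM in replicate 2, against 231 TPM in replicate 1. Exocrine pancreas markers summed to 18.7 TPM in replicate 2 and 79.4 TPM in replicate 1. The part of these cell types in the members' differences was not tested.

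**Figure D4:**
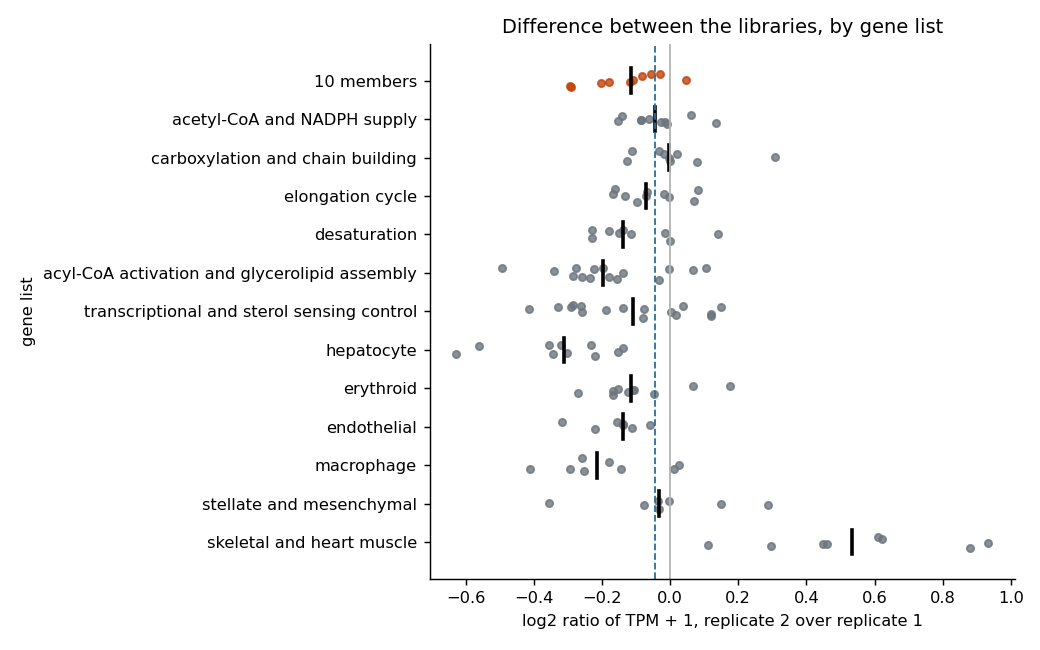
Log2 ratio of TPM + 1, replicate 2 over replicate 1, for each gene of the 10 members, the 6 lists of related pathway genes and 6 lists of cell type markers. Each dot is a gene, black bars are list medians, the dashed line is the median of all genes compared and the grey line is 0. The members' median of -0.11 lies between that of all genes and that of the hepatocyte markers. Among the lists drawn, the muscle markers lie apart on the right. The lists of exocrine pancreas markers, with a median of -1.70, and of adipocyte markers are not drawn.

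Around the members, 58 of 69 genes on 6 lists of the wider pathway reached 1 TPM in each library, and 48 of them 10 TPM or more. Of all protein-coding genes, 53.1% reached 1 TPM in both libraries. The median log2 ratio of the 69 genes was -0.09. None of the 53 that reached 5 TPM in either library differed by more than 2-fold, against 0.672% of all genes compared. In the list for acetyl-CoA and NADPH supply, 9 of 10 genes were detected. Mpc2 and Mpc1, which form the mitochondrial pyruvate carrier, led it, with Mpc2 at 252 TPM in replicate 2 and 229 TPM in replicate 1, and Mpc1 at 125 and 132 TPM.

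In the list for carboxylation and chain building, 6 of 9 genes were detected. Mid1ip1, a partner that promotes polymerisation of acetyl-CoA carboxylase, was its highest gene at 37.9 TPM in replicate 2 and 38.4 TPM in replicate 1. Thrsp, the related Spot 14 protein of lipogenic tissues, was at 0.609 TPM in replicate 2 and 0.300 TPM in replicate 1, from 30 and 11 counts. Olah, a thioesterase that releases medium-length chains, had no count in either library, a result that still allows as much as 0.0679 CPM (counts relative to a fixed library total) in replicate 2 and 0.0881 CPM in replicate 1.

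Of the 10 further genes of the elongation cycle, 7 were detected. The later enzymes of the cycle were abundant. Tecr, the final reductase, was at 243 TPM in each library, and Hsd17b12, the first reductase, at 63.4 TPM in replicate 2 and 64.3 TPM in replicate 1. The desaturation list had 7 of 9 genes detected and was led by the electron carriers of the desaturases. Cyb5a, the gene of cytochrome b5, was at 615 TPM in replicate 2 and 666 TPM in replicate 1, and Cyb5r3, its reductase, at 113 and 128 TPM. Fads6, a desaturase-like gene, was at 3.13 TPM in replicate 2 and 3.84 TPM in replicate 1.

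The list for acyl-CoA activation and glycerolipid assembly had 13 of 15 genes detected. Of its 12 genes at 5 TPM or more in either library, 10 were lower in replicate 2, beside the 60.8% of all genes compared. Dgat2, which completes triglyceride, was at 126 TPM in replicate 2 and 160.1 TPM in replicate 1. Acsl1 and Acsl5, which activate fatty acids to acyl-CoA, were at 93.3 and 84.9 TPM in replicate 2, against 110.0 and 85.1 TPM in replicate 1. Agpat3, an acyltransferase of the next step of assembly, had the widest difference of all 69 genes, at 30.3 TPM in replicate 2 and 43.0 TPM in replicate 1, a log2 ratio of -0.49.

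All 16 genes of transcriptional and sterol sensing control were detected. Insig1, which holds the SREBP precursors in the endoplasmic reticulum, was the highest at 61.0 TPM in replicate 2 and 56.1 TPM in replicate 1. Nr1h2, the gene of liver X receptor beta, was at 42.4 TPM in replicate 2 and 42.3 TPM in replicate 1. Ppara, a nuclear receptor of fatty acid oxidation, had the widest difference of this list by the ratio of TPM + 1. It was at 22.3 TPM in replicate 2 and 30.02 TPM in replicate 1. Ppargc1b, a coactivator of SREBP-1, was the lowest at 1.10 TPM in replicate 2 and 1.52 TPM in replicate 1.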

How the data were processed

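Total RNA was sequenced from 2 pools of livers, replicates of a single group per the labels. The tables were made on mm10 with annotation M4 per the companion file records, but the aligner and quantifier were not given in the sources used here. Expected counts, as the authors deposited them, are unscaled estimates per gene and transcript. Their TPM and posterior mean TPM, deposited beside them, are abundances per length whose total includes spike-ins. The effective lengths, which lie 99 nt below the lengths, were also taken as the authors deposited them. The interval bounds were rescaled by the total posterior mean TPM of the genes, so they lie around that mean and not around the TPM. Gene symbols and positions were read from GENCODE M21 (GRCm38), which named 42462 of 43346 genes and gave the same length for 38 of the members' 43 transcripts. TPM was rescaled after 97 spike-in and 26248 numeric entries were left out. No p-value is given for a difference between single libraries. Replicate 2 was set over replicate 1 as the ratio of TPM + 1, beside the exact (Clopper-Pearson) 95% interval of the count ratio scaled by library totals. Fold calls and intervals were checked on simulated counts with sampling noise only and no length correction. That noise is smaller than the spread between these libraries, so the check does not cover that spread. Intervals and the limit of 3 counts for a count of 0 cover counting error only. The members and lists were chosen with earlier results of these data known. From each pathway list the 3 highest genes, the lowest and that with the widest difference between libraries were named, plus all isozymes of a member and each transcript with 10% or more of a member, as far as they are printed. No measure of likeness to other genes can be had over 2 libraries. Alternatives used posterior mean TPM, other pseudocounts and limits, TMM (edgeR 4.0.16) and median-of-ratios (DESeq2 1.42.0) scaling, spike-in scaling and each library alone. Coding sequences were aligned with Biopython 1.88. Scripts ran in R 4.3.3 and Python 3.11.15 with SciPy 1.17.1, pandas 2.3.3, NumPy 2.4.6 and, for figures, matplotlib 3.10.9.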

Additional observations from a re-analysis of the deposited data

How the results depend on the processing

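Of 48 results under alternatives, 33 were called the same, 12 moved and 3 reversed. For levels and ratios, the same meant a shift below the SD of the 2 libraries or the counting error. For counts of genes it meant an equal count or one within 1.5 times. Leaving out 1 of 2 libraries always shifts their mean by less than their SD. For the summed level and the isozyme ratios that alternative could therefore only be called the same. The count of 0 members beyond 2-fold held under all 7 alternatives run, as did the detection of pathway genes within 1.5 times. With only 0.672% of all genes compared beyond 2-fold by TPM, a count of 0 among 9 members says little about these genes. With adult globin genes out of the total, the members summed to 567 TPM. The members' median log2 ratio was -0.0966 without globins, -0.0953 by median-of-ratios scaling and -0.178 for the transcripts with most counts (chosen after seeing the data), and it reversed to 0.0340 with spike-in scaling. Not corrected for length, by expected counts, the log2 ratio of Scd2 over Scd1 was 2.93, of Acaca over Acacb 3.48, of Elovl5 over Elovl6 0.571, and of Srebf1 over Srebf2 reversed to -0.456, which also reversed to -0.0595 without Srebf1-204, likewise chosen after seeing the data. By posterior mean TPM the ratios were 3.24 for Acaca over Acacb, 0.658 for Srebf1 over Srebf2 and 1.76 for Elovl5 over Elovl6. A pseudocount of 1 gave 2.12 for Acaca over Acacb and 1.54 for Elovl5 over Elovl6. The causes were not tested, beyond what each setting changes by construction. No paired analysis was possible because there is a single group of 2 libraries.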

Other observations

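A separate mitochondrial route of fatty acid synthesis, which makes the precursor of lipoic acid, was also measured. Mecr, its reductase, was at 31.7 TPM in replicate 2 and 32.5 TPM in replicate 1. Mcat, which loads malonyl groups, was at 13.4 and 14.7 TPM in replicates 2 and 1, Cbr4, a ketoacyl reductase subunit, at 14.3 and 13.5 TPM, and Oxsm, the condensing enzyme, at 1.72 and 1.73 TPM. In each library Mecr was above Fasn and Acaca, Mcat and Cbr4 lay between Acaca and Fasn, and Oxsm was below both. Fads2, the first desaturase of polyunsaturated fatty acid synthesis, was at 94.1 TPM in replicate 2 and 105 TPM in replicate 1, and Fads1, the next desaturase, at 64.6 and 71.2 TPM, both above Scd1 and below Scd2 in each library.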
